A study of Homo sapiens with 4 samples.

Results

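Of the hg19 genome, 54 fixed windows of 100 kb held 3 or more binding regions of the transcription factor BACH1 in each of 2 human airway epithelial cell lines, Calu3 and 16HBE14o-. The windows were chosen by the number of regions whose summit, the position of highest signal, fell inside them. The members are the 437 regions in these windows, of 13639 in all: 217 of the 10246 Calu3 regions and 220 of the 3393 regions of 16HBE14o-. Because the counts chose the windows, the counts themselves and the closeness of the regions are descriptions. No test against the rest of the lists is given, since every measure comes from the same regions.

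BACH1 binding was mapped by chromatin immunoprecipitation and sequencing (ChIP-seq) with a rabbit anti-BACH1 antibody, in 2 replicates of each line and 4 samples in all. Calu3 is a lung adenocarcinoma line, and 16HBE14o- is an immortalised line of bronchial epithelial cells; both were grown in the same serum-containing medium, with no treatment or genetic change given in the labels. The study asked whether BACH1 takes part in regulating the chloride channel gene CFTR. Each line is represented by 1 list that the authors made from both replicates with the irreproducible discovery rate, which keeps peaks ranked alike in a pair of replicates, so no spread between replicates can be given and read depth is unknown.

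BACH1 is a basic leucine zipper protein that pairs with small MAF proteins and binds DNA elements that contain the recognition core of the AP-1 factors FOS and JUN. It is known as a repressor of genes of haem breakdown, iron storage and antioxidant defence, and haem causes it to leave DNA and be degraded. NRF2, which activates many of the same genes under oxidative stress, binds related elements with the same MAF partners. Several bound elements near a gene are a familiar arrangement among known BACH1 targets such as HMOX1, the haem-degrading enzyme. Regions are given here by position on hg19 and were not assigned to genes. Gene symbols serve only to say where a window lies: they come from general knowledge of the human genome map, not from an annotation of the files. The DNA sequences under the regions were not used here.

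Windows dense in both lists were a small part of all windows with binding. At least 1 region of both lists fell in 1745 windows, of which the 54 made up 3.09%. Calu3 alone reached 3 regions in 655 windows and 16HBE14o- in 161. No 16HBE14o- region was present in 343 of the windows dense in Calu3, and no Calu3 region in 30 of the windows dense in 16HBE14o-. The 54 windows covered 5.4 Mb and took in 2.12% of the Calu3 list and 6.48% of the 16HBE14o- list.

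**Figure D1:**
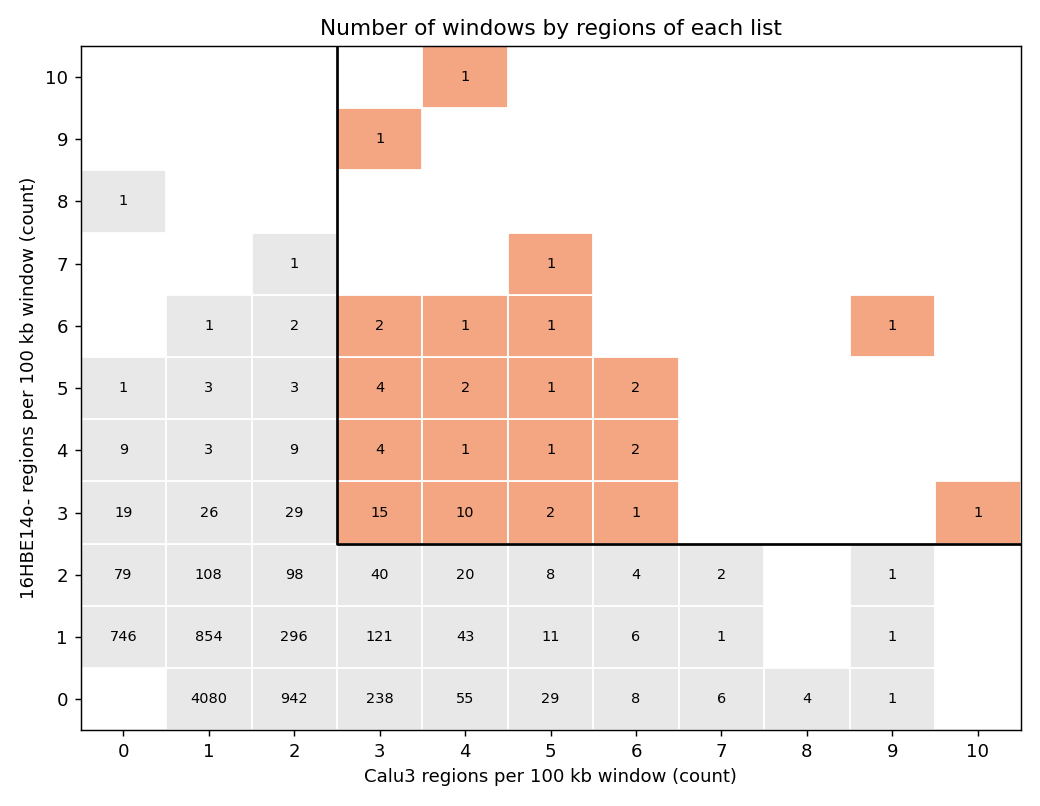
Number of 100 kb windows (the figure in each cell) by the count of Calu3 regions (horizontal axis) and of 16HBE14o- regions (vertical axis) that they hold. The black line bounds the 54 windows with 3 or more of each (orange), of which 15 sit at the lower corner with exactly 3 of each; 2 windows with 25 and 30 Calu3 regions and none of 16HBE14o- lie beyond the horizontal axis.

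Most of the windows lay close to the threshold. Exactly 3 regions of each list were found in 15 of the 54, and only 14 held 4 or more of each and 6 held 5 or more of each. Calu3 regions per window ran from 3 to 10 with a median of 4, and 16HBE14o- regions from 3 to 10 with a median of 3. Calu3 had the larger number in 20 windows, 16HBE14o- in 17, and the numbers were equal in 17. Just outside the threshold, 75 windows had 3 or more Calu3 regions and exactly 2 of 16HBE14o-, and 44 had exactly 2 Calu3 regions and 3 or more of 16HBE14o-.

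The windows lay on 18 chromosomes, with 15 on chromosome 20, 6 on chromosome 11 and 5 on chromosome 2. Chromosome 20 held 62 of the 217 Calu3 members (28.6%, 95% exact binomial interval 22.7 to 35.1), against 3.52% (95% interval 3.17 to 3.90) of the remaining Calu3 regions. It held 74 of the 220 16HBE14o- members (33.6%, 95% interval 27.4 to 40.3), against 8.64% (7.68 to 9.67) of the remaining regions of that list. These intervals, and those below, cover counting error only and treat each region as a separate draw. Members enter in whole windows of 3 or more regions per list, so the intervals are likely too narrow for them. Of the 54 windows, 9 had another of the 54 directly beside them.

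About as many member regions were bound at the same place in both lists as were not. A region was counted as met by the other list where at least 1 bp overlapped. In Calu3, 115 of 217 members were met by a 16HBE14o- region (53.0%, 95% interval 46.1 to 59.8), against 14.5% (13.8 to 15.2) of the rest and 15.3% of the whole list. In 16HBE14o-, 118 of 220 members were met by a Calu3 region (53.6%, 95% interval 46.8 to 60.4), against 46.0% (44.3 to 47.8) of the rest and 46.5% of the whole list. The 437 members thus marked 319 distinct places.

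The choice of the windows bears on this share, because it asks for regions of both lists in the same 100 kb. The 53.0% of the Calu3 members stood against 52.0% (95% interval 50.1 to 53.9) of the remaining Calu3 regions with at least 1 region of 16HBE14o- in their window. The 53.6% of the 16HBE14o- members stood against 67.5% (95% interval 65.5 to 69.5) of the remaining regions of that list with at least 1 Calu3 region in their window. These sets also hold windows with 1 or 2 regions of their own list, which the rule for members leaves out, so the shares are not those of like windows. In windows with 1 or 2 regions of their own list and 3 or more of the other, 69.4% (95% interval 60.4 to 77.5) of 121 regions were met in Calu3 and 82.0% (95% interval 77.4 to 86.0) of 333 in 16HBE14o-. Windows with 3 or more regions of their own list and just 2 of the other gave 37.6% (95% interval 32.0 to 43.5) in Calu3 and 37.6% (95% interval 29.99 to 45.7) in 16HBE14o-. The share among members lay between these neighbouring kinds of window in both lines. The counts that define these sets themselves bear on this order, since fewer regions of the other list can meet fewer regions. The part of the counts in the order was not tested.

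**Figure D2:**
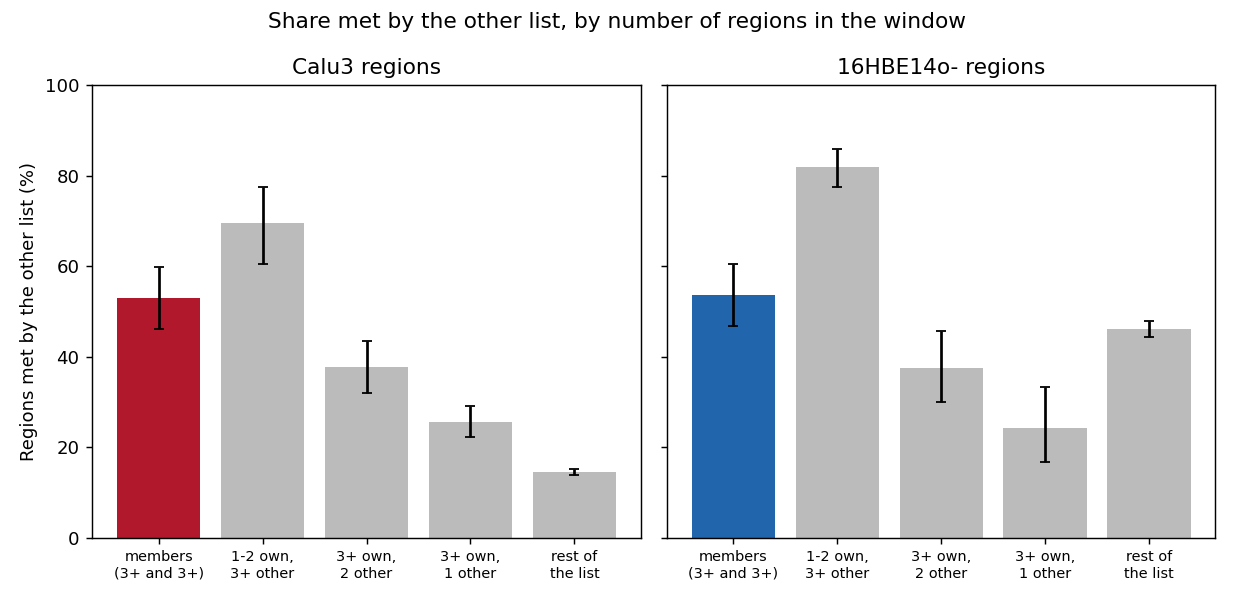
Percent of Calu3 regions (left panel) and of 16HBE14o- regions (right panel) that a region of the other list met by at least 1 bp, for the members for 3 other sets of windows named by their counts of own and other regions, and for the rest of the list; error bars are 95% exact binomial intervals. The members stand at 53.0% in Calu3 and 53.6% in 16HBE14o-. Windows with 1 or 2 own and 3 or more other regions stand at 69.4% and 82.0%. Those with 3 or more own and 2 other regions stand at 37.6% in both. The counts that define the sets bear on this order.

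Nearly every window had at least some binding at the same place. A shared region was present in 51 of the 54 windows, and 40 windows had 2 or more Calu3 regions that were shared. In 20 windows there were 3 and in 2 windows there were 4, the highest number. All Calu3 regions of the window were shared in 8 windows and all 16HBE14o- regions in 9, and in 3 windows every region of both lists was shared. A count of 0 was found in 3 windows. The rule of 3 or more regions of each list favours such overlap, and no like count was made for other windows.

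The strength of the members was compared within each list. The signal columns of the lists are on different scales, fold enrichment in Calu3 and an unstated signal in 16HBE14o-, so they were ranked within each list, with 100 as the strongest. The median percentile was 50.5 for Calu3 members (interquartile range 26.9 to 83.4) and 49.97 for the rest of that list (24.9 to 74.8). In 16HBE14o- it was 56.3 for members (24.9 to 79.7) and 49.8 for the rest (25.1 to 74.7). The strongest 10% of the list took in 37 Calu3 members (17.1%, 95% interval 12.3 to 22.7), against 9.86% (9.28 to 10.46) of the rest. In 16HBE14o- the strongest 10% took in 28 members (12.7%, 95% interval 8.63 to 17.9), against 9.83% (8.82 to 10.9) of the rest. Against the narrower set of remaining regions with at least 1 region of the other list in their window, the order was different. The median percentile of the Calu3 members, 50.5, was below the 61.9 of that set, and their share in the strongest 10%, 17.1%, was below its 20.1%. In 16HBE14o- the median of 56.3 for members stood against 58.7, and the share of 12.7% against 13.6%. The 95% interval of the member median was 44.3 to 58.0 in Calu3 and 46.0 to 64.6 in 16HBE14o-. These intervals take regions as independent, which regions of 1 list and of the same window are not. They therefore decide none of these comparisons. By the values alone, members of both lists stood above the rest and below the narrower set.

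Members that the other list met ranked higher than those it did not meet. Calu3 members that were met had a median percentile of 76.3 (interquartile range 46.1 to 91.2), against 33.0 (12.03 to 49.3) for those that were not. In 16HBE14o- the medians were 74.7 (55.0 to 88.9) for members that were met and 28.4 (12.6 to 53.3) for those that were not. In the rest of the lists the same 2 medians were 82.5 and 45.5 in Calu3, and 71.8 and 34.0 in 16HBE14o-. Of the 102 unshared members of each list, 3 in Calu3 and 1 in 16HBE14o- were among the strongest 10%. In Calu3 the strongest 10% held 29.6% (interval 21.4 to 38.8) of the shared members, against 35.3% of the shared regions elsewhere. It held 2.94% (interval 0.61 to 8.36) of the unshared members, against 5.53% of the unshared regions elsewhere. In 16HBE14o- the order was the other way for shared members, with 22.9% (interval 15.7 to 31.5) against 19.8% elsewhere. For unshared members of that list it was 0.98% (interval 0.02 to 5.34) against 1.29% elsewhere. In both lines the intervals took in the shares elsewhere.

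**Figure D3:**
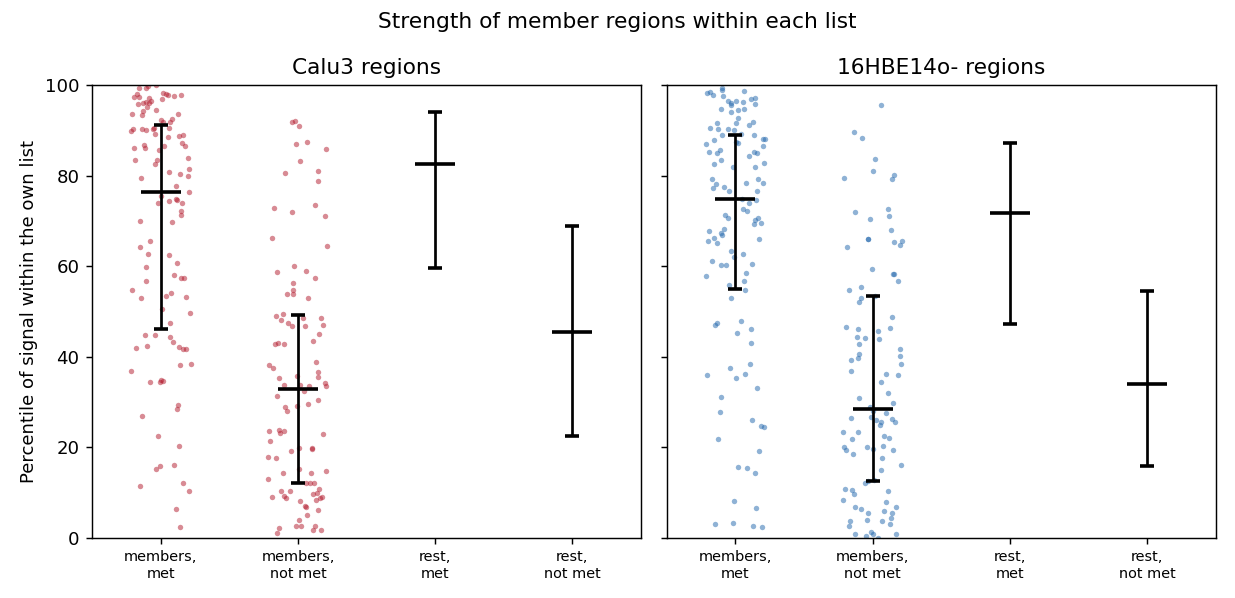
Percentile of signal within the own list (vertical axis, 0 to 100) for Calu3 regions (left) and 16HBE14o- regions (right), split by whether the other list met them; points are single members, horizontal bars are medians and the vertical lines run from the lower to the upper quartile. Members that were met lie higher (medians 76.3 and 74.7) than members that were not (33.0 and 28.4), and the rest of each list shows the same order.

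Of the Calu3 members, 170 had a deposited q under 0.05 (78.3%, 95% interval 72.3 to 83.6), against 73.2% (72.4 to 74.1) of the rest and 73.3% of the whole list. Among members met by 16HBE14o- this was 93.9% (95% interval 87.9 to 97.5), and among unmet members 60.8% (95% interval 50.6 to 70.3). In the rest of the list the same 2 shares were 93.4% and 69.8%. Calu3 members were 266 bp wide in the median (interquartile range 195 to 375), against 235 bp (187 to 305) in the rest. Calu3 members that were met had a median width of 329 bp, against 214 bp for those that were not. In the rest of the list the same 2 widths were 325 and 224 bp. The part of width in the shares above was not tested. The median width of 16HBE14o- members was 240 bp, as in the rest of that list. Both quartiles were also 240 bp in each set, so width hardly varied in that list. None of the 22 regions that had been merged from overlapping 16HBE14o- rows was a member.

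Neighbouring summits of the same list were about 9 kb apart in the windows. The median gap was 9649 bp in Calu3 (interquartile range 2148 to 21444) and 8907 bp in 16HBE14o- (2641 to 20945). In Calu3 59 of 163 gaps were at most 5 kb, and in 16HBE14o- 59 of 166. Windows with 3 or more regions of their own list but fewer than 3 of the other had median gaps of 11339 bp in Calu3 and 14011 bp in 16HBE14o-. From the first to the last summit of either list the windows spanned 1714 to 93318 bp, and 22 of them spanned under 50 kb.

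Shared members were placed alike by the lists. The median distance between paired summits was 20 bp over the 118 shared 16HBE14o- members (interquartile range 11 to 43), against 18 bp (9 to 35) over the 1461 shared regions elsewhere. Summits lay within 50 bp of each other for 98 of the 118 (83.1%), against 88.0% elsewhere. Unshared members often had the other line's binding nearby, as the choice of windows makes likely. The nearest summit of the other list was a median of 6061 bp away for unshared Calu3 members and 6101 bp away for unshared 16HBE14o- members. For unshared regions elsewhere the medians were 340839 bp in Calu3 and 64003.5 bp in 16HBE14o-. It was within 1 kb for 20 of 102 unshared Calu3 members and for 13 of 102 unshared 16HBE14o- members. Elsewhere, among unshared regions on chromosomes with a summit of the other list, it was within 1 kb for 78 of 8562 in Calu3. In 16HBE14o- this held for 42 of 1712. Regions elsewhere are under no such rule, so these distances and counts are not those of like windows.

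The same place was the strongest of both lists in 27 of the 54 windows. The strongest Calu3 region of the window was met by some 16HBE14o- region in 46 windows, and the strongest 16HBE14o- region was met by some Calu3 region in 43. In the other 27 windows the leading regions of the 2 lines were at different places. The strongest regions of other windows were not compared in this way. Over the 118 shared members, strength in one list went with strength in the other (Spearman's rho = 0.59 across regions), against 0.53 over 1461 pairs elsewhere. Regions of 1 list share their libraries and are not independent.

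**Figure D4:**
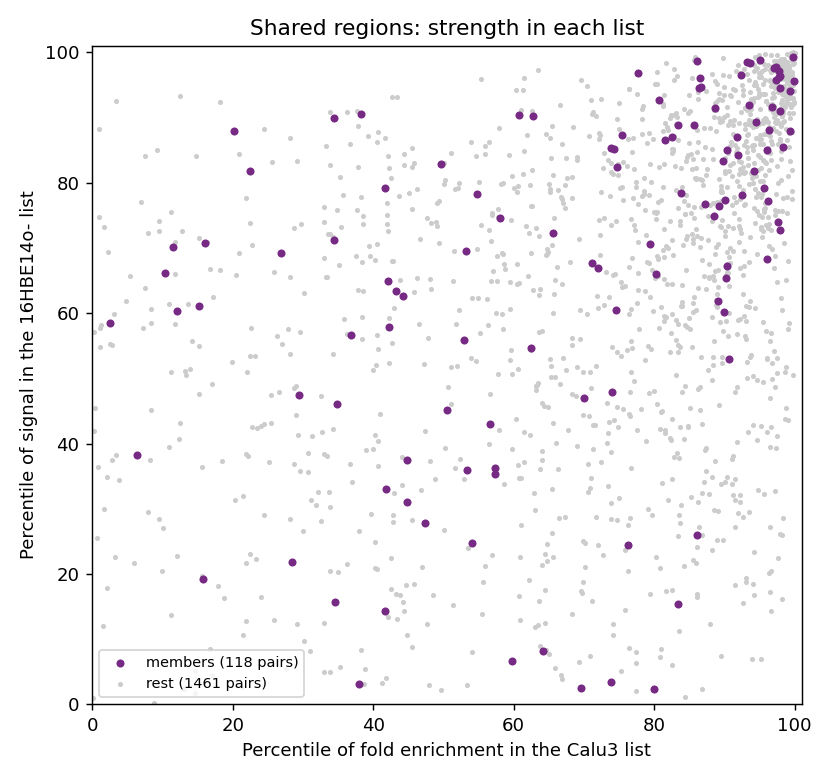
Percentile of fold enrichment in the Calu3 list (horizontal axis) against percentile of signal in the 16HBE14o- list (vertical axis) for regions that overlap between the lists, one point per 16HBE14o- region; 118 pairs are in windows dense in both lists (purple) and 1461 elsewhere (grey). The purple points spread over the same field as the grey ones, with rank correlations of 0.59 and 0.53.

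In 3 windows each region of one line had a counterpart in the other. On chromosome 17 from 1600001 to 1700000, 3 sites lay within 2454 bp. The leading site, at 1618095 in Calu3 and 1618094 in 16HBE14o-, had a fold enrichment of 19.1 in Calu3 (rank 227) and a signal of 101.1 in 16HBE14o- (rank 129). The next had a fold enrichment of 6.18 at 1619879 in Calu3 and a signal of 33.5 at 1619927 in 16HBE14o-. The last had a fold enrichment of 9.62 at 1620548 in Calu3 and a signal of 42.0 at 1620506 in 16HBE14o-. The order of strength of these 3 sites was the same in both lines.

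On chromosome 4 from 185600001 to 185700000, the 3 Calu3 sites had fold enrichments of 11.6 at 185655403, 4.29 at 185667777 and 7.67 at 185668350. Their 16HBE14o- counterparts were at 185655353, 185667850 and 185668325, with signals of 44.5, 31.9 and 59.7. The first site led in Calu3 and the last in 16HBE14o-.

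On chromosome 11 from 9300001 to 9400000, a pair of sites lay side by side and another stood apart. The strongest, at 9385953 in Calu3, had a fold enrichment of 46.0, rank 8 of that list and the highest of any Calu3 member. Its counterpart at 9385936 had a signal of 94.7 in 16HBE14o- (rank 151). The neighbour had a fold enrichment of 15.3 at 9385011 in Calu3 and a signal of 37.2 at 9385015 in 16HBE14o-. The distant site had a fold enrichment of 7.09 at 9336488 in Calu3 and a signal of 17.8 at 9336445 in 16HBE14o-, so that the 3 sites ranked alike.

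The most compact window was on chromosome 3 from 23900001 to 24000000, where 7 regions lay within 1714 bp. Calu3 regions had fold enrichments of 4.57 at 23987369, 2.64 at 23987770, 4.02 at 23988102 and 8.63 at 23989077. Those of 16HBE14o- had signals of 26.9 at 23987383, 25.3 at 23988108 and 24.97 at 23989083. The 3 sites of 16HBE14o- each had a Calu3 counterpart with a summit 6 to 14 bp away. The strongest Calu3 region, at 23989077, ranked 1425, and the strongest 16HBE14o- region, at 23987383, ranked 2164, so the lines led with different places.

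Most regions of all fell in a window on chromosome 20 from 30100001 to 30200000, which holds ID1, an inhibitor of helix-loop-helix transcription factors. It had 9 Calu3 regions and 6 of 16HBE14o-, and 4 sites were shared. These had fold enrichments of 6.30 at 30148085, 3.51 at 30160695, 6.21 at 30181713 and 2.73 at 30198674 in Calu3. Their counterparts had signals of 60.5 at 30148104, 29.2 at 30160706, 50.4 at 30181787 and 38.4 at 30198691 in 16HBE14o-. The first of them was the strongest in both lines, at rank 2521 in Calu3 and rank 429 in 16HBE14o-. Calu3 had 5 further summits, at 30132326, 30181289, 30182813, 30192061 and 30196537, with fold enrichments of 2.51 to 3.90. Those of 16HBE14o- were at 30130172 and 30193050, with signals of 25.5 and 29.3. The site at 30193050 was 989 bp from the Calu3 summit at 30192061 and did not overlap it.

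Next came chromosome 11 from 65600001 to 65700000, the window of FOSL1, which encodes the AP-1 subunit FRA1. It held 4 Calu3 regions and 10 of 16HBE14o-, the highest number for that line. The leading site was the same in both, with a fold enrichment of 18.7 at 65666893 in Calu3 (rank 234) and a signal of 112 at 65666851 in 16HBE14o- (rank 99). A second strong place had a fold enrichment of 8.74 at 65683319 in Calu3 and a signal of 88.8 at 65683326 in 16HBE14o- (rank 187). A weaker pair overlapped with summits 242 bp apart, with a fold enrichment of 3.90 at 65670589 in Calu3 and a signal of 27.3 at 65670831 in 16HBE14o-. The remaining 16HBE14o- regions had no Calu3 counterpart; the strongest of them had a signal of 45.9 at 65680571 and the others had signals of 20.8 to 35.4.

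The order of the lines was the other way round on chromosome 3 from 149000001 to 149100000, the window of TM4SF1, a small membrane protein of epithelial and tumour cells. There 10 Calu3 regions, the highest number for that line, faced 3 of 16HBE14o-, and all 3 were shared. The leading place had a fold enrichment of 12.96 at 149085050 in Calu3 (rank 593) and a signal of 49.4 at 149085041 in 16HBE14o- (rank 618). The next had a fold enrichment of 5.77 at 149091781 in Calu3 and a signal of 36.9 at 149091764 in 16HBE14o-. The last had a fold enrichment of 3.28 at 149057973 in Calu3 and a signal of 24.3 at 149057987 in 16HBE14o-. The 7 Calu3 regions without a counterpart had fold enrichments of 2.11 to 4.41, below those of the 2 leading places.

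On chromosome 20, 6 of the 15 windows lay between 48200001 and 49400000, a stretch with B4GALT5, a galactosyltransferase of glycolipid synthesis, CEBPB, a basic leucine zipper transcription factor, and PTPN1, a tyrosine phosphatase of the endoplasmic reticulum. From 48300001 to 48400000 each line had 5 regions, of which 4 were shared. The strongest shared place there had a fold enrichment of 11.2 at 48334394 in Calu3 (rank 832) and a signal of 53.6 at 48334420 in 16HBE14o-. The other shared Calu3 summits were at 48302548, 48330650 and 48392028, with fold enrichments of 3.79, 3.56 and 4.61. Their counterparts at 48302568, 48330659 and 48392037 had signals of 32.5, 32.1 and 41.7 in 16HBE14o-. The unshared region of Calu3 was at 48393002 with a fold enrichment of 3.52. That of 16HBE14o- at 48384984 had a signal of 67.7, higher than any shared region of the window.

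From 49100001 to 49200000, where PTPN1 lies, the 3 Calu3 regions were all shared, with fold enrichments of 5.82 at 49109716, 4.93 at 49157649 and 8.83 at 49178286. Their counterparts had signals of 36.5 at 49109653, 69.4 at 49157600 and 89.2 at 49178262 in 16HBE14o-, which had 2 further regions with signals of 15.3 and 28.0. In the next window, from 49200001 to 49300000, 3 places were shared, and the strongest 16HBE14o- region, with a signal of 95.7 at 49292732 (rank 148), had no Calu3 counterpart. It was the only unshared 16HBE14o- member within the strongest 10% of its list. From 49300001 to 49400000 there were 3 Calu3 regions, all shared, and 9 of 16HBE14o-. The leading place had a fold enrichment of 8.77 at 49378395 in Calu3 and a signal of 99.5 at 49378358 in 16HBE14o-.

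Members on chromosome 20 had lower median percentiles than the other members in both lists. The median percentile was 36.0 (interquartile range 14.2 to 63.9) for the 62 Calu3 members on chromosome 20 and 57.3 (33.8 to 87.7) for the 155 elsewhere. In 16HBE14o- it was 47.0 (21.3 to 76.1) for 74 members on chromosome 20 and 60.3 (25.7 to 83.2) for 146 elsewhere. The 95% intervals of these medians were 29.0 to 44.9 and 48.9 to 71.2 in Calu3. They were 36.0 to 61.9 and 45.1 to 67.8 in 16HBE14o-. Regions of the same window are not independent, so these intervals do not test the difference. Regions of chromosome 20 outside the windows were also below the middle of their lists, with medians of 29.4 in Calu3 and 38.8 in 16HBE14o-. The share met by the other list was 51.6% (95% interval 38.6 to 64.5) of the Calu3 members on chromosome 20 and 53.5% (95% interval 45.4 to 61.6) of those elsewhere. In 16HBE14o- it was 43.2% (95% interval 31.8 to 55.3) on chromosome 20 and 58.9% (95% interval 50.5 to 67.0) elsewhere. The intervals of these shares overlapped in both lines. Among regions of chromosome 20 outside the windows, the share met was 20.7% of 353 in Calu3 and 26.6% of 274 in 16HBE14o-. Over all regions outside the windows it was 14.5% in Calu3 and 46.0% in 16HBE14o-.

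**Figure D5:**
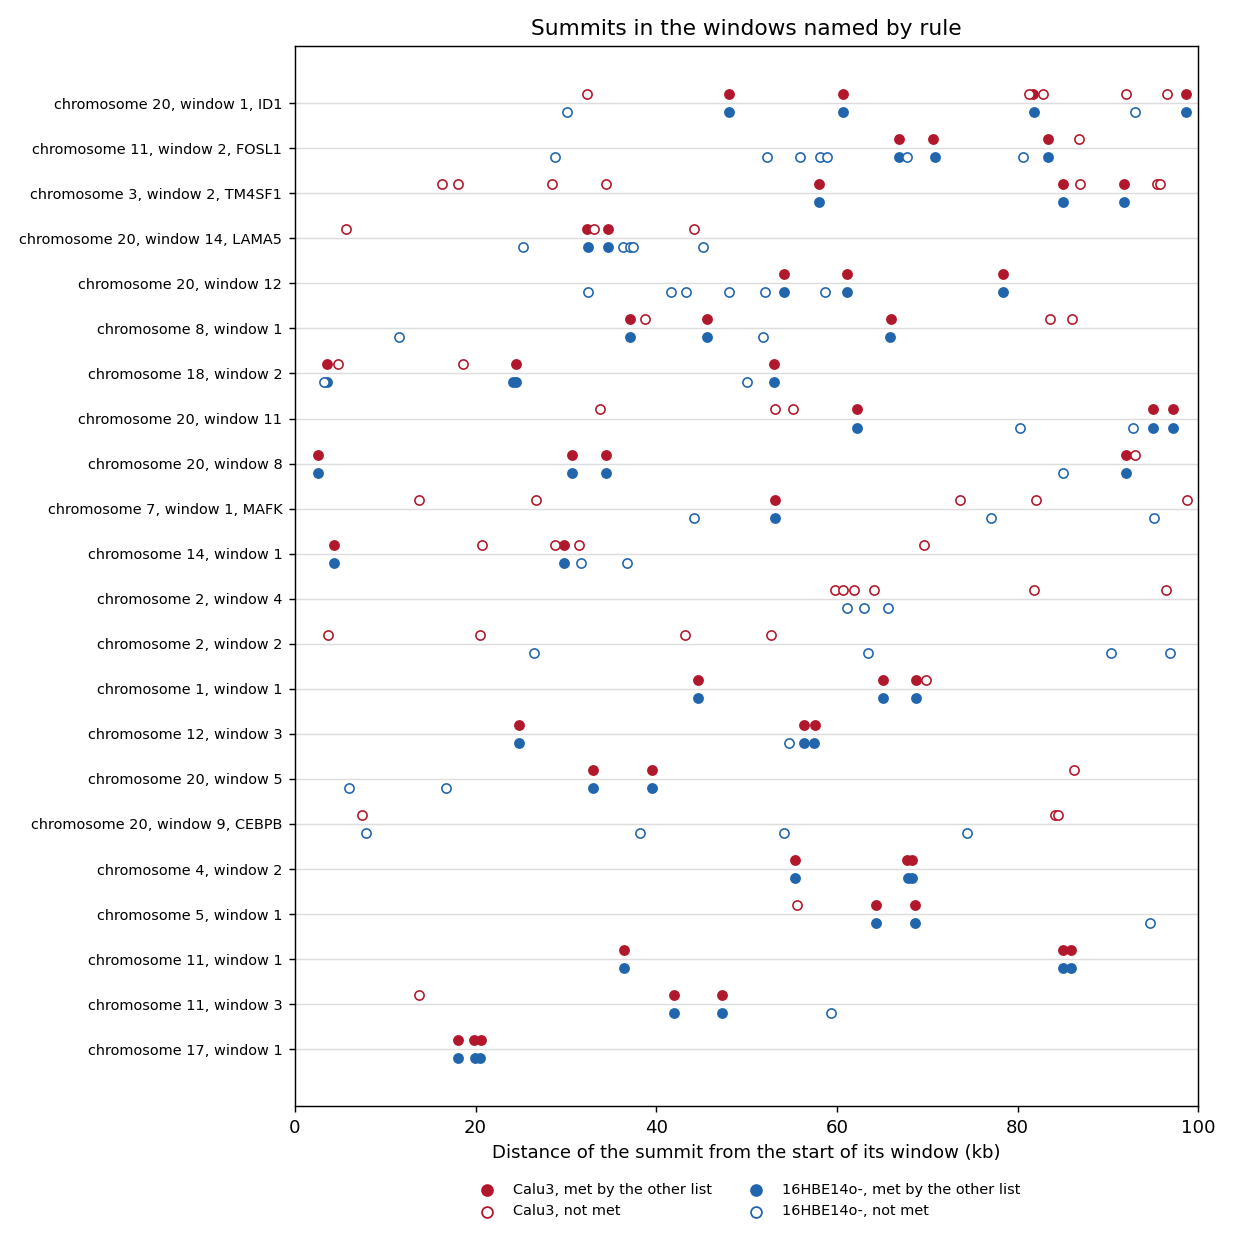
Position of every member summit, in kb from the start of its 100 kb window (horizontal axis), in the windows named by rule (rows, with the chromosome, the order of the window along it among the 54 and, for orientation, a gene of the window from general knowledge); Calu3 is red and drawn above, 16HBE14o- blue and below. Filled points were met by the other list and open points were not: red and blue filled points stand in pairs, as on chromosome 17, while chromosome 2 windows 2 and 4 and the CEBPB window have open points alone.

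Chromosome 7 from 1500001 to 1600000 holds MAFK, which encodes a small MAF partner of BACH1, and had 6 Calu3 regions and 4 of 16HBE14o-. A single place was shared, with a fold enrichment of 7.86 at 1553144 in Calu3 and a signal of 64.1 at 1553157 in 16HBE14o- (rank 379), where it was the strongest of the window. The strongest Calu3 region, with a fold enrichment of 11.2 at 1573669 (rank 839), had no counterpart; the nearest 16HBE14o- summit, at 1577029, had a signal of 23.7. The lines thus led with different places in this window.

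Chromosome 5 from 179200001 to 179300000 holds SQSTM1, which encodes the autophagy receptor p62 and is a known NRF2 target. Calu3 had 3 regions there, with fold enrichments of 3.52 at 179223246, 3.82 at 179233988 and 19.6 at 179246614 (rank 211). The regions of 16HBE14o- had signals of 40.2 at 179246146, 103 at 179246586 (rank 123) and 72.2 at 179247562. All 3 of these overlapped the single Calu3 region at 179246614, so that the window was dense in 16HBE14o- through sites that Calu3 listed as 1 broad region. The only other Calu3 member that met more than 1 region lay on chromosome 18.

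That window, chromosome 18 from 3600001 to 3700000, had 5 Calu3 regions and 6 of 16HBE14o-. The strongest place of both lines had a fold enrichment of 8.64 at 3653041 in Calu3 (rank 1423) and a signal of 149 at 3653053 in 16HBE14o- (rank 45). The Calu3 region at 3624524, with a fold enrichment of 6.09, met 16HBE14o- regions at 3624533 and 3624112, with signals of 55.3 and 19.0. A further shared place had a fold enrichment of 4.16 at 3603590 in Calu3 and a signal of 28.9 at 3603576 in 16HBE14o-. The unshared Calu3 summits were at 3604806 and 3618586 (fold enrichments 7.24 and 3.52), and those of 16HBE14o- at 3603180 and 3650059 (signals 28.2 and 26.9).

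The window of KRT7, a keratin of simple epithelia, lay on chromosome 12 from 52600001 to 52700000. It had 3 regions of each line and 2 shared places. The leading place had a fold enrichment of 10.2 at 52609502 in Calu3 and a signal of 33.4 at 52609454 in 16HBE14o-. The other had a fold enrichment of 2.503 at 52611333 in Calu3 and a signal of 27.5 at 52611247 in 16HBE14o-. In the window of the tight junction gene CLDN4, chromosome 7 from 73200001 to 73300000, the leading place had a fold enrichment of 7.28 at 73247764 in Calu3 and a signal of 77.7 at 73247775 in 16HBE14o- (rank 250). A region of each line was also found 927 bp apart without overlap, with a fold enrichment of 5.98 at 73266234 in Calu3 and a signal of 36.1 at 73265307 in 16HBE14o-.

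The window of EZR, which links the plasma membrane to actin, lay on chromosome 6 from 159200001 to 159300000. It had 3 Calu3 regions with fold enrichments of 2.89 to 3.87 and 5 of 16HBE14o- with signals of 22.3 to 38.6, and 2 places were shared. In the window with the start of the adhesion gene EPCAM, chromosome 2 from 47500001 to 47600000, the single shared place had a fold enrichment of 4.71 at 47596344 in Calu3 and a signal of 20.8 at 47596316 in 16HBE14o-. The strongest Calu3 region of that window, with a fold enrichment of 10.6 at 47526862, was not met. In the window of LAMA5, a laminin chain of basement membranes, chromosome 20 from 60900001 to 61000000 held 5 Calu3 regions and 7 of 16HBE14o-. The places shared there had fold enrichments of 4.33 at 60932342 and 4.41 at 60934681 in Calu3, and signals of 26.8 at 60932418 and 44.6 at 60934637 in 16HBE14o-. The weakest region of the whole 16HBE14o- list, with a signal of 8.95 at 60937461, was in this window.

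After the chromosome 11 site at 9385953, the strongest Calu3 member lay at the place of the strongest 16HBE14o- member. On chromosome 12 from 120500001 to 120600000, 1 place ranked 26 in Calu3 with a fold enrichment of 33.5 at 120524852, and 24 in 16HBE14o- with a signal of 186 at 120524847, the highest of any member of that line. The other shared places of the window had fold enrichments of 3.51 at 120556328 and 4.12 at 120557537 in Calu3, and signals of 68.1 at 120556319 and 51.2 at 120557522 in 16HBE14o-. The window thus joined 1 strong site of both lines with weaker ones elsewhere in it.

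The 16HBE14o- member of next highest signal was on chromosome 14 from 62000001 to 62100000, where the place had a fold enrichment of 13.9 at 62029755 in Calu3 and a signal of 154 at 62029748 in 16HBE14o- (rank 41). It was followed by the chromosome 18 site at 3653053 and by chromosome 20 from 42800001 to 42900000, where the leading place had a fold enrichment of 12.1 at 42833016 in Calu3 and a signal of 144 at 42833005 in 16HBE14o- (rank 52). On chromosome 11 from 67100001 to 67200000, 2 neighbouring places had fold enrichments of 12.4 at 67141978 and 6.66 at 67147237 in Calu3. In 16HBE14o- their signals were 140 at 67141957 (rank 58) and 106 at 67147258 (rank 108), with the same order of the places.

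In Calu3 the members that ranked next after chromosomes 11 and 12 were on chromosomes 1, 5 and 8. On chromosome 1 from 82100001 to 82200000, the leading Calu3 region had a fold enrichment of 27.4 at 82168759 (rank 64), while the leading 16HBE14o- region had a signal of 103 at 82144671 (rank 119), 24088 bp away. On chromosome 5 from 1500001 to 1600000, both lines led with the same place, with a fold enrichment of 27.0 at 1568607 in Calu3 (rank 67) and a signal of 86.2 at 1568614 in 16HBE14o- (rank 204). On chromosome 8 from 142000001 to 142100000, the leading Calu3 region had a fold enrichment of 20.6 at 142037056 (rank 176), and its counterpart at 142037094 had a signal of 55.9. Another place of that window had a fold enrichment of 3.63 at 142065941 in Calu3 and a signal of 70.1 at 142065925 in 16HBE14o-, where it led. The order of the places thus differed between the lines on chromosomes 1 and 8 and not on chromosome 5.

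In the 3 windows without a shared region, all 13 Calu3 regions lay below the median fold enrichment of that list, 4.13. On chromosome 2 from 91700001 to 91800000, beside the centromere, 6 Calu3 regions had fold enrichments of 2.26 to 3.98 and 3 regions of 16HBE14o- had signals of 24.3 to 28.6. Their summits lay close but apart, such as 91761907 in Calu3 and 91761165 in 16HBE14o-. On chromosome 2 from 47400001 to 47500000, 4 Calu3 regions had fold enrichments of 2.64 to 3.47 and 4 of 16HBE14o- had signals of 23.2 to 30.7. In the window of CEBPB, chromosome 20 from 48800001 to 48900000, 3 Calu3 regions had fold enrichments of 2.63 to 3.59. The 4 of 16HBE14o- had signals of 24.9 to 46.8. The nearest pair there was at 48807385 in Calu3 and 48807820 in 16HBE14o-, with a fold enrichment of 3.59 and a signal of 35.2. Of the 13 Calu3 regions of these windows, 4 had a q under 0.05.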

How the data were processed

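BACH1 ChIP-seq peak lists of Calu3 and 16HBE14o- were used, 1 list per line, pooled over 2 replicates by the irreproducible discovery rate per the labels. The build is hg19, per the submitters' processing notes. Which aligner, caller, filters and control were used is not given in the sources used here.

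Per Calu3 peak, the authors deposited a fold enrichment (a ratio, read from the column's place and values), −log10 p (used here only as a score for ranking), −log10 q and a browser score; for 16HBE14o- the authors deposited a signal on an unstated scale and 2 scores. Signals are the authors' and were used only within a list.

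Overlapping 16HBE14o- rows were merged (3415 rows to 3393 regions), keeping the strongest row's summit. A summit is the start column plus the offset column. Windows of 100 kb began at multiples of 100000 bp, and a window was a member with 3 or more regions of each list. Positions are 1-based. A q under 0.05 was read from the −log10 q column. Intervals of shares are 95% exact (Clopper-Pearson), and those of medians are 95% exact binomial intervals taken from the ordered values. Python 3.11.15, numpy 2.4.6, pandas 2.3.3 and scipy 1.17.1 were used, and the counting of windows and overlaps was tested on simulated data.

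The members, gene lists and alternatives were chosen with earlier results of these data known. Named windows are the 10 with most regions (ties by the larger of the windows' lower counts, then by chromosome and position), 5 by number of shared Calu3 regions (2 with 4, and 3 of the 20 tied at 3, taken in the order of total regions), those of the 5 strongest members per line and those at the ends of the shared range; the window on chromosome 3 from 23900001 and those named for SQSTM1, KRT7, CLDN4, EZR, EPCAM and PTPN1 were chosen after their values were seen. Each symbol given for orientation is on the same chromosome in RefSeq (GRCh38.p14), in the same order along all 5 chromosomes with more than 1. Annotation of regions, gene list counts and motif searches needed hg19 sequence or annotation and were not run here.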

Additional observations from a re-analysis of the deposited data

How the results depend on the processing

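Of 35 values under other settings, 26 stayed within 1.5 times the main count or within the main value's 95% interval. The 54 windows became 22 with windows of 50 kb, 14 with 4 or more regions in each list and 8 in the upper 50% of each list by signal; fewer regions or a stricter rule give fewer windows by construction. They numbered 51 on a grid shifted by 50 kb, 38 without Calu3 regions of q 0.05 or more, 54 by interval midpoint and 55 with 16HBE14o- rows unmerged. The shifted grid kept 117 of the 217 Calu3 members and 121 of the 220 16HBE14o- members, so which regions are members depends on where the windows begin. The share met by the other list, 53.0% in Calu3 and 53.6% in 16HBE14o-, fell to 40.1% and 39.5% with a reciprocal overlap of 50%. By that rule the Calu3 share elsewhere was 12.01%, still well below that of members. The 16HBE14o- share elsewhere was 37.9%, inside the 95% interval of its members (33.0 to 46.3). Members of 16HBE14o- thus stood hardly above the rest of that list by this rule. In the upper 50% of each list the share was 66.7% of 27 Calu3 members (95% interval 46.0 to 83.5), against 18.75% elsewhere. For 16HBE14o- it was 75% of 24 members (95% interval 53.3 to 90.2), against 57.5% elsewhere. Without Calu3 regions of q 0.05 or more the share was 65.2% in Calu3, against 18.7% of the rest. With 4 or more regions in each list, the median percentile of Calu3 members was 42.3. Leaving out the windows of chromosome 20, chosen after seeing the data, gave shares of 53.5% in Calu3 and 58.9% in 16HBE14o-. The cause of these shifts was not tested where the setting itself does not give it. No paired analysis was possible because the lists hold no values per replicate, which also kept the replicates from being left out in turn. The planned settings for gene starts, gene lists and motifs were not run either. Without read depth, a region found in a single list may have been below detection in the other line.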
